A study of Mus musculus with 192 samples.

Results

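Cholesterol and fatty acid synthesis was followed through 29 genes, taken by name from the table of molecule counts, of 24264 genes in all and 14304 with at least 1 molecule. All 29 were present in the table, each with at least 50 molecules over the 96 wells, and none was filtered out. They comprised 7 genes of the mevalonate route (Acat2, Hmgcs1, Mvk, Pmvk, Mvd, Idi1, Fdps) and 11 of the sterol route that follows it (Fdft1, Sqle, Lss, Cyp51, Tm7sf2, Sc4mol, Nsdhl, Hsd17b7, Ebp, Sc5d, Dhcr7). A further 5 regulate the pathway or carry sterols (Srebf1, Srebf2, Insig1, Insig2, Stard4), and 6 make fatty acids (Acly, Acaca, Fasn, Scd1, Scd2, Elovl6). Here these 4 sets are called the mevalonate, sterol, regulator and fatty acid arms.

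Mammalian cells build cholesterol from acetyl-CoA by way of mevalonate, farnesyl diphosphate and squalene, and build fatty acids from the same acetyl-CoA by way of malonyl-CoA. The membrane-bound transcription factors SREBP1 and SREBP2, encoded by Srebf1 and Srebf2, switch on the genes of both routes when sterols run low, and the Insig proteins hold them in the endoplasmic reticulum when sterols are plentiful. SREBPs bind sterol response elements in promoters, usually beside sites for NF-Y, which reads CCAAT boxes, and Sp1, which reads GC boxes. Dividing cells such as embryonic stem (ES) cells use both products for new membrane.

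The cells were R1, a line of mouse ES cells kept on feeder fibroblasts that had been irradiated, of which 96 were captured singly in the chambers (wells) of 1 microfluidic chip. Feeders had been left behind by settling and dead or early apoptotic cells removed before the cells were frozen. RNA was copied with template switching, which marks the 5′ end, in the presence of synthetic spike-in RNAs. The cDNA went through 21 cycles of PCR. The libraries were sequenced in 2 forms, after 9 extra cycles of PCR and without them. The table holds 1 column per well for both forms, so the forms were not compared, and all cells came from 1 culture, so no p-value was computed and spreads are between wells.

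Levels are molecules per 10000 gene molecules of the well, with spike-ins and repeats left out. Each molecule is counted at its 5′ end, so a longer transcript does not give more counts per molecule. Other effects of transcript length on the levels were not tested. Wells fell into 2 ranges: 45 low-RNA wells held 8774 to 35543 gene molecules (median 22234), and 51 RNA-rich wells held 51390 to 573648 (median 98750). Of the RNA-rich wells, 9 were keratin-high, with Krt8 and Krt18 together at 20 per 10000 or more. The lowest of them was at 20.5, and the highest of the other 42 RNA-rich wells was at 10.8. Wells C03, H03 and H12 had spike-in totals over 4 times above or below the median.

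All 14 ES cell markers were detected, with summed levels of 41.1 to 144 in low-RNA wells and 20.1 to 236 in RNA-rich wells. Of 17 feeder markers 15 were detected and Lum and Postn were at 0. Their summed level was 5.06 to 19.4 in low-RNA wells and 4.92 to 185 in RNA-rich wells, with E02 (163) and D02 (185) above every keratin-high well (13.2 to 72.01). Of 8 trophectoderm markers 7 were detected and Hand1 was at 0, with summed levels of 22.03 to 73.3 in keratin-high wells and 1.95 to 11.5 in other RNA-rich wells. Krt8 and Krt18, which define the keratin-high class, are among these markers, so this difference was fixed by the rule. Of the rest with at least 50 molecules, Krt19 was higher in keratin-high wells (ratio 6.23) and Tfap2c lower (0.396). Of 7 primitive endoderm markers 5 were detected, Sox17 and Sox7 were at 0, and the sum reached at most 2.81 in a well.

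The promoters of the synthesis genes were looked at first for the letters that SREBPs and their partners read. RefSeq promoter windows on GRCm38.p6, from 250 bases before to 50 bases after the start, were found for 23 of the 29 genes. On either strand, the core of the sterol response element, TCACNCCA, was in 3 of 23 members (13.0%), against 4.97% of 27025 genes. These were Hmgcs1, Sc4mol and Srebf2, shown here as the members that hold the core. The 250 bases before each start are given 5′ to 3′ on the gene's strand, with TCACNCCA and CCAAT (or ATTGG, its reverse complement) in capitals, at chr13:119690101-119690350 (plus strand) for Hmgcs1, chr8:64733579-64733828 (minus strand) for Sc4mol and chr15:82147019-82147268 (plus strand) for Srebf2.
Hmgcs1: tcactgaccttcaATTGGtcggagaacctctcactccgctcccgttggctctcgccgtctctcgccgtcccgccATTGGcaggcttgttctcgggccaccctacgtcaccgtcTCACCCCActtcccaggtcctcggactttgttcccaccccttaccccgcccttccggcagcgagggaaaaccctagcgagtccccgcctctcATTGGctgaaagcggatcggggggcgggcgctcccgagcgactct
Sc4mol: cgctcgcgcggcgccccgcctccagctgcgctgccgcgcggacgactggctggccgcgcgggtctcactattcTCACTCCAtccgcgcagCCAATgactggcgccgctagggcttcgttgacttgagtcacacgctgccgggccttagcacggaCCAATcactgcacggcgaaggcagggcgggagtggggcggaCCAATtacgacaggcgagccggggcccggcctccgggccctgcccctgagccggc
Srebf2: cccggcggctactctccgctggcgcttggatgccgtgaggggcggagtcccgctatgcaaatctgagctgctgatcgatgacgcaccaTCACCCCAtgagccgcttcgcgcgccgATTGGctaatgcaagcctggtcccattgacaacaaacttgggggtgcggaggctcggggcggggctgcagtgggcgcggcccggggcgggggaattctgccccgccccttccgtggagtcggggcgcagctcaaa

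The core lay 137 bases before the start in Hmgcs1, 177 in Sc4mol and 162 in Srebf2. CCAAT on either strand was in 20 of 23 members (86.96%) against 41.1% of all genes with a window, and GGGCGG, the GC box, in 19 (82.6%) against 38.2%. CACGTG, an E-box that SREBP1 also reads, was in 4 (17.4%) against 8.09%. A longer form of the sterol element, which contains the core, was in 0 of 23 members and 0.0999% of all genes. The comparison with all genes mixes genes of every type and level of activity.

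Synthesis gene RNA was scarcer in low-RNA wells even after allowing for their lower totals. The 29 genes had 1121 of 1010740 gene molecules in low-RNA wells and 9256 of 5836811 in RNA-rich wells, which is 11.1 and 15.9 per 10000. The ratio of the levels was 0.699 (exact 95% interval 0.657 to 0.744). Intervals here and below cover counting error only. Per well, the summed level was 4.43 to 18.3 (median 10.8) in low-RNA wells and 8.08 to 44.1 (median 15.0) in RNA-rich wells, so the classes overlapped.

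Most genes of the table lay on the same side, with 5874 of 8276 genes below a ratio of 1. Of the 29 members, 17 were lower by at least 1.5-fold in low-RNA wells and 0 were higher. Among 8276 genes with at least 50 molecules, 38% were lower and 10.7% higher by that measure. The median ratio was 0.604 for the members and 0.760 for all genes, and 21 of the 29 lay below the median of all genes.

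Low-RNA wells also held more mitochondrially encoded RNA, 29.1% of gene molecules at the median, while RNA-rich wells had 10.4%. With these molecules left out of the denominator, the ratio for all 29 was 0.884 and 9 members were lower by 1.5-fold, against 17.4% of all genes. Members' median ratio was then 0.763 beside 0.960 for all genes, and again 21 of 29 lay below it. Per spike-in molecule instead, all 29 were lower, as were 96.3% of all genes, and the ratio was 0.218.

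**Figure D1:**
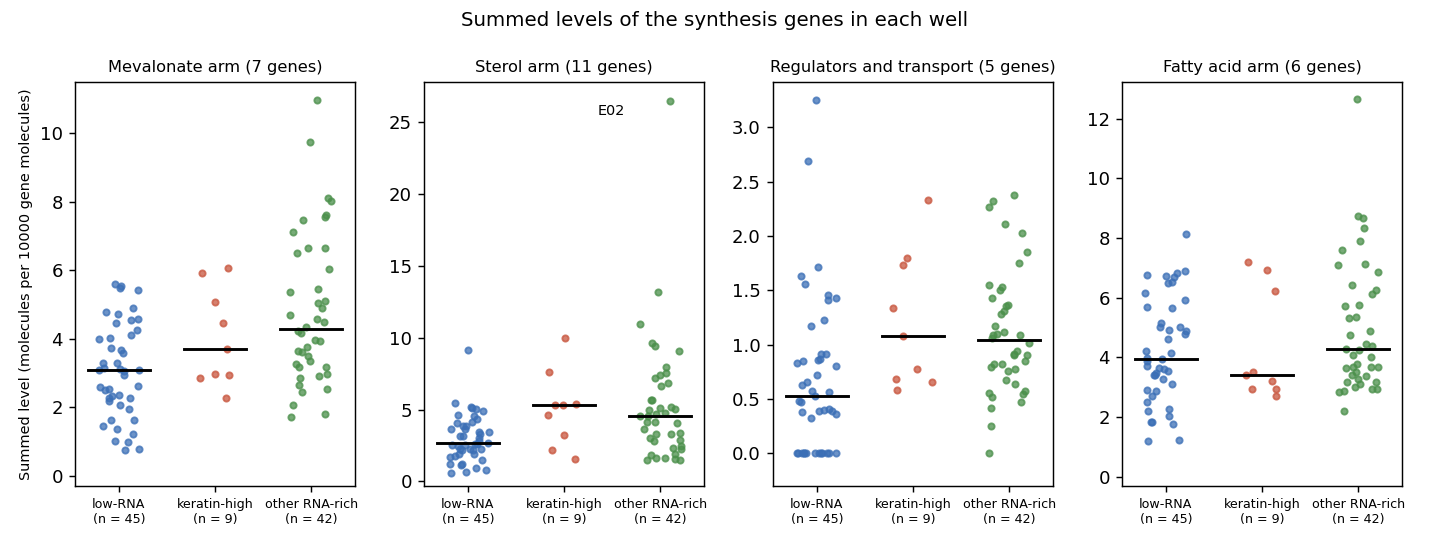
Summed level of each arm, in molecules per 10000 gene molecules, in each well (points) with the median of the class (lines), for low-RNA wells, keratin-high wells and other RNA-rich wells. Sterol levels sit lower in low-RNA wells (median 2.71) than in RNA-rich wells, where E02 stands at 26.5, and fatty acid levels overlap throughout.

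The mevalonate arm, which turns acetyl-CoA into farnesyl diphosphate, had a summed level of 0.734 to 5.61 (median 3.08) in low-RNA wells and 1.71 to 10.98 (median 4.21) in RNA-rich wells. The ratio of pooled levels was 0.676 (0.600 to 0.760). Of its 7 genes 4 were lower by at least 1.5-fold and 0 higher. Fdps, which joins isoprene units into farnesyl diphosphate, had the lowest ratio, 0.475 (0.323 to 0.678), with a median level of 0 and a highest of 2.08 in low-RNA wells, against a median of 0.588 and a highest of 3.06 in RNA-rich wells. It was seen in 16 of 45 low-RNA wells and 50 of 51 RNA-rich wells. Acat2, which joins a pair of acetyl-CoA molecules, Pmvk, the phosphomevalonate kinase, and Mvd, the decarboxylase, had ratios of 0.583, 0.582 and 0.661. Mvd was at 0.701 without well C06, its highest.

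Hmgcs1, the synthase that makes HMG-CoA, was the most abundant gene of the arm. Its level was 0 to 3.66 (median 1.05) in low-RNA wells and 0.164 to 7.35 (median 1.20) in RNA-rich wells, so the classes overlapped in most of their range. The ratio was 0.745 (0.602 to 0.915). Mvk, the mevalonate kinase, had 112 molecules in all and a ratio of 0.758 (0.390 to 1.36), or 0.600 without F04. Idi1, the isomerase of isopentenyl diphosphate, was at 0.934 (0.699 to 1.23), but 17.6% of its molecules came from uniquely matched reads, so its value is uncertain. Fdps had 60.1% unique and Acat2 77.7%.

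The sterol arm, which turns farnesyl diphosphate into cholesterol through squalene and lanosterol, showed the lowest ratio of the 4 arms. Its summed level was 0.586 to 9.12 (median 2.71) in low-RNA wells and 1.48 to 26.5 (median 4.60) in RNA-rich wells. The pooled ratio was 0.559 (0.494 to 0.631), and 8 of 11 genes were lower by at least 1.5-fold with 0 higher. Hsd17b7, a sterol ketone reductase, had 5 molecules in low-RNA wells and 112 in RNA-rich wells, a ratio of 0.258 (0.0821 to 0.620). It was 0.157 without H12 and 0.714, short of the 1.5-fold limit, with the border between classes at the median gene total. The reductase Tm7sf2 (0.407), Fdft1, the squalene synthase (0.415), the isomerase Ebp (0.424), the reductase Dhcr7 (0.444) and the demethylase Cyp51 (0.489) followed. Tm7sf2, Hsd17b7 and Dhcr7 rest on 5, 5 and 7 molecules in low-RNA wells.

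Other sterol genes had higher ratios. Lss, which closes the sterol rings of lanosterol, had a ratio of 0.962 (0.550 to 1.59) and Sqle, the squalene epoxidase, 0.870 (0.595 to 1.24). Sc4mol, the C4 demethylase also called Msmo1, had 0.686 (0.546 to 0.852), with levels of 0 to 5.70 (median 0.653) in low-RNA wells and 0 to 4.88 (median 0.821) in RNA-rich wells, and it passed the 1.5-fold limit without D12 (0.654). For Nsdhl, a C4 decarboxylase, the ratio of 0.604 became 0.706 without well G09, and for the desaturase Sc5d 0.642 became 0.700 without B09.

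**Figure D2:**
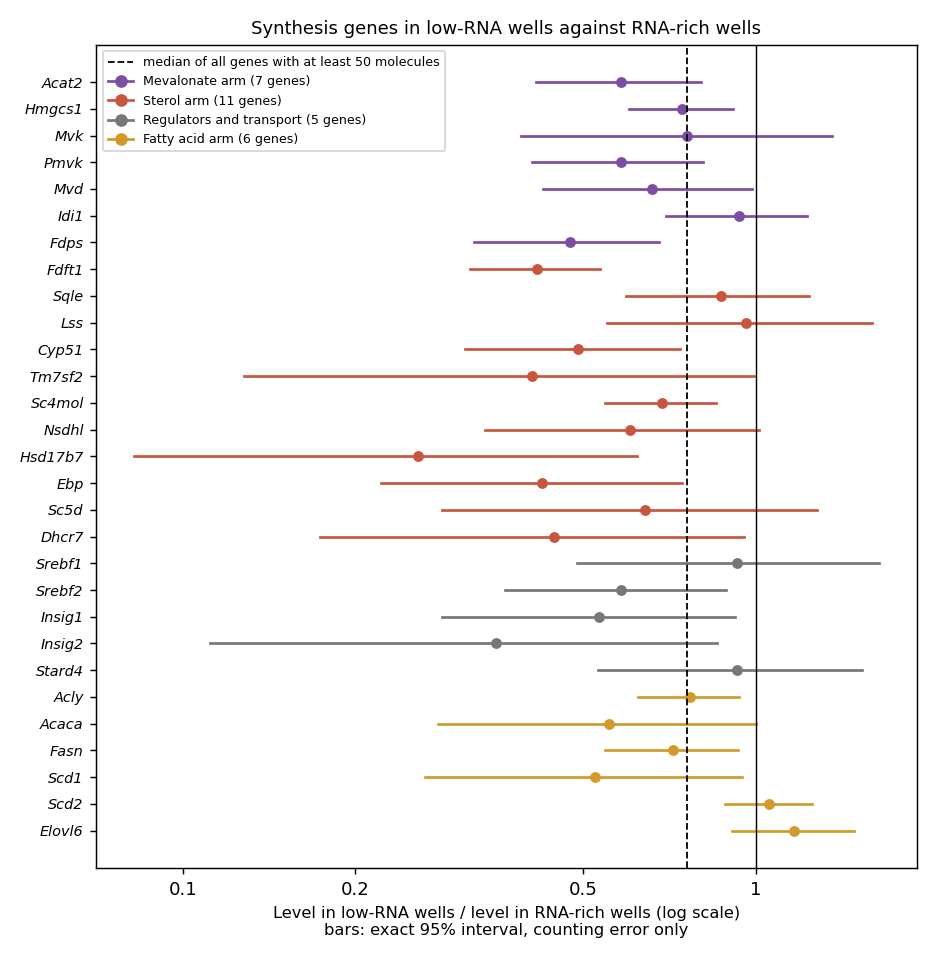
Level in low-RNA wells over level in RNA-rich wells for each of the 29 genes on a log scale, with exact 95% intervals for counting error. The dashed line is the median of 8276 genes (0.760), and points run from Hsd17b7 (0.258) to Elovl6 (1.17).

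The regulator arm was the least abundant, with a median summed level of 0.525 in low-RNA wells (0 to 3.25) and 1.06 in RNA-rich wells (0 to 2.38), and a pooled ratio of 0.645 (0.501 to 0.820). Of its 5 genes 3 were lower by at least 1.5-fold. Srebf2, whose product drives cholesterol genes above all, had a ratio of 0.582 (0.366 to 0.888). It was seen in 18 of 45 low-RNA wells and 49 of 51 RNA-rich wells. Srebf1 was at 0.929 (0.488 to 1.64) on 14 molecules in low-RNA wells and 87 in RNA-rich wells. Srebf2 gave 63.2% (45.99 to 78.2) of the molecules of the pair in low-RNA wells and 73.2% (68.1 to 77.97) in RNA-rich wells, intervals that overlap.

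The retention proteins and the sterol carrier were sparse. Insig2 had a ratio of 0.352 (0.111 to 0.856) on 5 molecules in low-RNA wells (0.217 without E01), and Insig1 0.532 (0.284 to 0.920), with 49.4% of its molecules unique. Stard4, which moves cholesterol between membranes, was at 0.928 (0.531 to 1.53). Its highest levels were 1.63 in A02 of the low-RNA wells and 1.50 in G09 of the RNA-rich wells, while both classes had medians below 0.1.

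The fatty acid arm had the ratio nearest to 1. Its summed level was 1.21 to 8.13 (median 3.96) in low-RNA wells and 2.19 to 12.6 (median 4.07) in RNA-rich wells, with a pooled ratio of 0.881 (0.795 to 0.975). With mitochondrial genes left out of the denominator the ratio was 1.11, above 1, so its direction depends on the denominator. The arm made up 38.98% (36.1 to 41.9) of the molecules of all 29 genes in low-RNA wells and 30.9% (30.0 to 31.9) in RNA-rich wells. This share does not depend on the denominator. Well by well the median share was 38.7% (13.3 to 58.3) in low-RNA wells and 32.03% (17.9 to 49.4) in RNA-rich wells, so single wells overlapped.

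Genes of the arm differed among themselves. Elovl6, which lengthens palmitate to stearate, had the highest ratio of all members, 1.17 (0.909 to 1.49). Scd2, a desaturase that puts the double bond into oleate, was the most abundant member, with 1022 molecules and a ratio of 1.06 (0.886 to 1.25). Its level was 0 to 5.74 (median 1.19) in low-RNA wells and 0.110 to 4.59 (median 1.41) in RNA-rich wells. Scd1, a related desaturase, had 144 molecules and a ratio of 0.525 (0.264 to 0.948). Scd2 made up 92.9% (87.99 to 96.3) of the molecules of the Scd pair in low-RNA wells and 86.7% (84.5 to 88.8) in RNA-rich wells.

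Acly, which splits citrate to acetyl-CoA, had a ratio of 0.767 (0.623 to 0.937), and Fasn, the fatty acid synthase, 0.719 (0.546 to 0.934). Acaca, which makes malonyl-CoA, had 0.554 (0.279 to 1.00), with 39.4% of its molecules unique. Acly was read in 36 of 45 low-RNA wells and in all 51 RNA-rich wells. Thinning every well to 8000 gene molecules narrowed such differences: the median member was then detected in 13.3% of low-RNA wells and 23.5% of RNA-rich wells, against 35.6% and 78.4% without thinning. At that depth, 20 of 29 members were seen in a smaller share of low-RNA wells. The same count was not made over all genes, so it cannot be read as particular to the members. Tm7sf2 was seen in 0 of 45 thinned low-RNA wells (exact 95% interval up to 7.87%).

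Pathway genes outside the 29 were read in the same way. Of 21 other genes of sterol supply and control, 17 had at least 50 molecules, 6 of them were lower by at least 1.5-fold in low-RNA wells, 1 was higher, and the median ratio was 0.776, close to that of all genes, of which 38% were lower. The lower ones were Cnbp (0.592), Lbr, which has a sterol reductase domain (0.657), Npc2, which carries cholesterol out of lysosomes (0.577), Rdh11 (0.530), Soat1, which esterifies cholesterol (0.630), and Tmem97 (0.612). Mbtps2, a protease that frees SREBPs, was higher (1.65, 0.919 to 2.82). Of 11 measurable other fatty acid genes 4 were lower and 0 higher (median 0.770), a share near the 38% of all genes. They were Ptplad1 (0.412), Slc25a1, the citrate carrier (0.475), Acsl4 (0.484) and Tecr (0.580, with 33.6% unique).

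Of 11 measurable genes of fatty acid oxidation, the opposing route, 7 were lower by at least 1.5-fold and 0 higher, beside 38% and 10.7% of all genes. The median ratio was 0.599, beside 0.604 for the 29 synthesis genes and 0.760 for all genes. The 7 were Cpt2, the inner carnitine transferase (0.218 on 2 molecules in low-RNA wells), Acadvl (0.267), Decr1 (0.344), Hadh (0.430), Acads (0.547), Acadm (0.599) and Eci1 (0.633).

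Keratin-high wells had a summed level of the 29 genes close to that of other RNA-rich wells, 15.2 against 15.997 per 10000 pooled, a ratio of 0.950 (0.899 to 1.00). Of the 29 members 6 were lower by at least 1.5-fold and 1 was higher, where 19.5% of 7811 genes were lower and 18.8% higher. These wells also had higher feeder marker sums (13.2 to 72.01, against 4.92 to 185 in other RNA-rich wells, with medians of 38.5 in keratin-high wells and 8.16 in the others) and lower ES marker sums (medians of 45.1 in keratin-high wells and 113 in the others). The part of these markers in the values below was not tested.

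Elovl6, the elongase, had the most molecules among the 3 members with the lowest ratios. Its level was 0 to 0.455 (median 0.202) in the 9 keratin-high wells and 0 to 3.33 (median 0.562) in the 42 other RNA-rich wells, a ratio of 0.317 (0.202 to 0.475). Scd1 was at 0.307 (0.130 to 0.623) and Mvk at 0.2001 (0.0534 to 0.529), on 8 and 4 molecules in keratin-high wells. Without their highest keratin-high wells, H05 and G10, they were at 0.179 and 0.115. Elovl6, Scd1 and Mvk stayed below the 1.5-fold limit when the highest well of either class was left out.

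The other differences were smaller or rested on single wells. Insig1 (0.520), Acat2 (0.620) and Nsdhl (0.594) were the other members lower by 1.5-fold. Insig1 and Acat2 also stayed below the limit without the highest well of either class, at most at 0.580 and 0.648. Nsdhl was at 0.709 without G09 and 0.367 without H05. Stard4 had a ratio of 1.90 (1.22 to 2.90), but 19 of its 32 molecules in keratin-high wells came from H05, without which the ratio was 0.902. Fasn (1.37), Sc4mol (1.40), Hmgcs1 (1.26) and Scd2 (1.26) were above 1 in keratin-high wells with intervals that left out 1, and Acly (0.751, 0.610 to 0.917) and Fdps (0.740, 0.545 to 0.988) were below it in the same way. Without the highest keratin-high well of each gene these were 1.09 for Fasn, 1.12 for Sc4mol, 1.06 for Hmgcs1, 1.19 for Scd2, 0.641 for Acly and 0.608 for Fdps. Leaving out each gene's highest keratin-high well also put Mvd, Idi1, Sqle, Lss, Tm7sf2, Ebp, Sc5d, Insig2 and Acaca below the 1.5-fold limit. They were then at 0.364 (Ebp) to 0.656 (Idi1). This step can only lower a ratio, so its direction was fixed in advance. Leaving out the highest of the other RNA-rich wells can only raise a ratio. It put the same genes at 0.775 (Sqle) to 1.51 (Tm7sf2, above the limit without B05). Neither step was run over all genes.

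How unevenly the genes were expressed from cell to cell was judged in the 42 other RNA-rich wells against the spike-ins, which went into every well from 1 mix. The squared coefficient of variation (CV) of a gene over wells was divided by that of a spike-in of the same mean, from a fit of 3.27/mean + 0.00925. A gene was called above technical noise at a ratio of at least 2, with all wells and again without its highest. Of 29 members 4 were called, Hmgcs1, Fdft1, Sc4mol and Scd2, where 5.71% of 7741 genes were. The median ratio was 1.67 for members and 1.33 for all genes.

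Without well E02 the medians were 1.72 and 1.31, but most of the calls rested on that well. Fdft1 (squalene synthase, chr14:63145150-63179578, minus strand, GRCm38) had 135 molecules there, a level of 24.8, against 4.83 in the next well and a median of 1.07. E02 was also the highest of the 42 wells for Hmgcs1 (40 molecules, 7.35), Scd1 (15, 2.76) and Scd2 (25, 4.59). Its Sc4mol level was low (1 molecule, 0.184). It had 0 molecules of all 5 regulator genes and of Mvk, Mvd, Lss, Tm7sf2, Nsdhl, Hsd17b7, Ebp, Fasn and Acaca. Molecules of 15 members were found in it, the fewest of any RNA-rich well. E02 held 54410 gene molecules, against a median of 98750 in RNA-rich wells, and the part of depth in these zeros was not tested. D02, the other well with a feeder marker sum above 100 per 10000, had 1 molecule of Fdft1 and 2 of Hmgcs1.

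Without E02 only Sc4mol was called among the members, where 4.9% of 7732 genes were. With all 42 wells its ratio was 4.18, and 3.63 without its highest, and its CV was 100% where the spike-in fit gave 48.95%. Sc4mol levels were 0 to 4.88 (median 0.746), highest in C10 and D07, with 2 wells at 0. Hmgcs1 had ratios of 4.43 with all 42 wells and 2.56 without E02, and 1.45 when B05, then its highest well, was also left out. For Fdft1 the values were 25.8, 2.29 and 1.53, the last again without E02 and the well next highest, and for Scd2 2.51, 2.14 and 1.95.

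**Figure D3:**
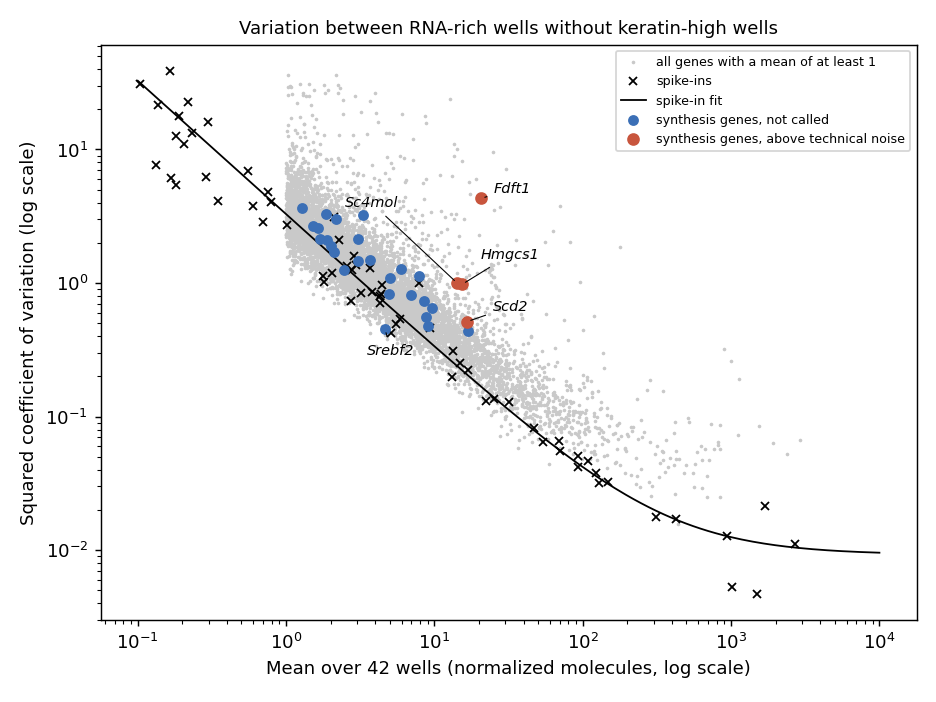
Squared CV against mean, both on log scales, over the 42 other RNA-rich wells, for all genes with a mean of at least 1 (grey), spike-ins (crosses) with their fit (line) and the 29 synthesis genes. The 4 called genes lie above the fit, Fdft1 farthest (ratio 25.8), and Srebf2 lies below it (0.633).

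Of the other members, Cyp51 (2.27 with all wells, 1.81 without the highest), Acly (2.14, 1.54), Hsd17b7 (2.00, 1.27), Pmvk (2.65, 1.23) and Scd1 (3.22, 1.79) passed the limit of 2 with all wells and missed it without their highest. Srebf2 had the lowest ratio, 0.633, with levels of 0 to 1.09 (median 0.338) and molecules in 40 of 42 wells. Acaca was at 0.927. The regulator arm had 0 of 5 genes called and a median ratio of 1.24, the fatty acid arm 1 of 6 and 2.00, the sterol arm 2 of 11 and 1.67, and the mevalonate arm 1 of 7 and 1.46.

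Fewer genes were called in thinned wells and in low-RNA wells. With each well thinned to 50000 gene molecules, 0 of 20 members with a mean of at least 1 were called, against 84 of 5305 genes. The spike-in fit was that of the unthinned wells, and thinning itself lowers the ratio to it, so the part of depth was not tested. In the 45 low-RNA wells, 0 of 8 members with that mean were called, where 0.594% of 2695 genes were. The median ratio there was 0.407 for the 8 members and 0.473 for all genes, and the highest among the 4 genes called in RNA-rich wells was that of Sc4mol, 0.860. Of the pathway genes outside the 29, Npc2 alone was called in the 42 wells (10.7).

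The levels of the members varied together to a small degree. Over the 42 wells, the median Spearman rho of the 406 pairs of members was 0.114, against 0.0193 over all pairs of 7741 genes, and 73.9% of member pairs were above 0. Wells share chip, depth and the total that levels are divided by. In the low-RNA wells the 28 pairs of the 8 measurable members had a median of 0.102, against 0.0108 over all gene pairs. Per spike-in molecule these were 0.111 and 0.0978, so little of the difference was left. These are weak values in sparse counts, and they are given as a description.

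The 5 highest pairs had rho of 0.51 to 0.56. Fdft1 with Sc4mol had a rho of 0.56, Mvd with Lss 0.55, Idi1 with Stard4 0.53, Cyp51 with Sc4mol 0.52 and Hmgcs1 with Sc5d 0.51. Without E02, Fdft1 with Sc4mol was at 0.65 and Hmgcs1 with Sc4mol at 0.53 (0.45 with it). In low-RNA wells Hmgcs1 with Sc4mol (0.49) and Hmgcs1 with Fdft1 (0.43) were the 2 highest of the 28 pairs, while Hmgcs1 with Scd2, at 0.48 in the 42 wells, was at -0.11.

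**Figure D4:**
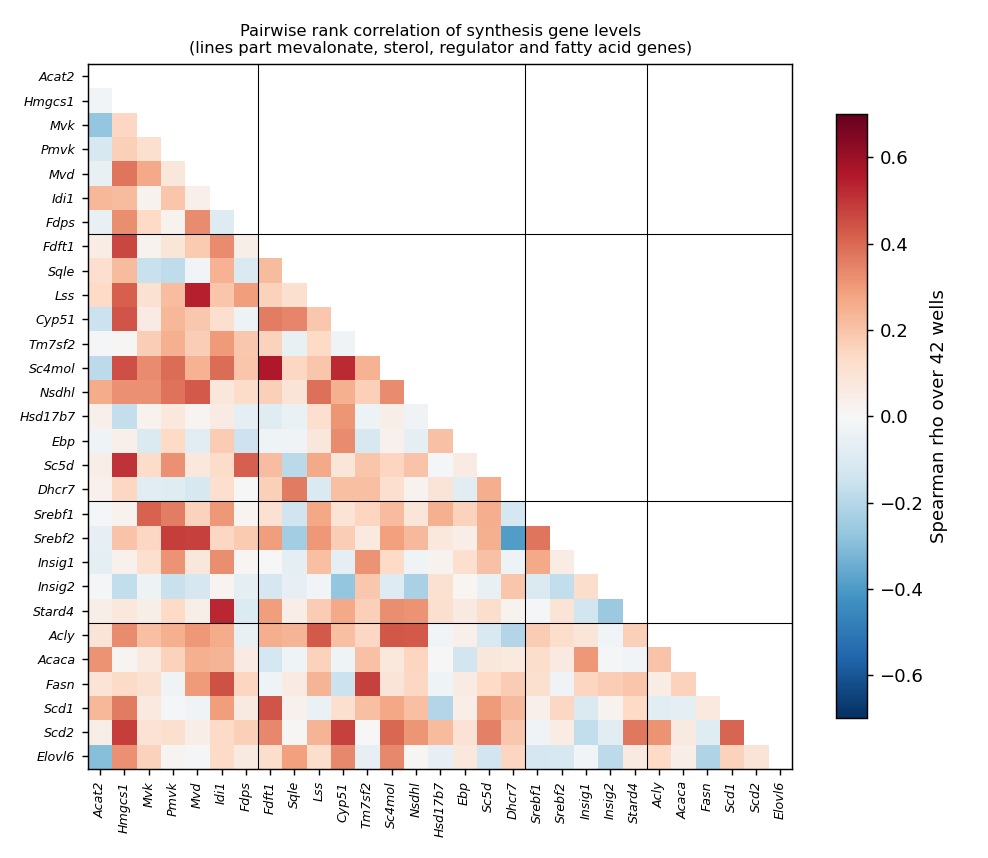
Spearman rho of the levels of each pair of the 29 genes over the 42 other RNA-rich wells, ordered by arm. Red cells lie above 0, most clearly for Sc4mol with Fdft1 (0.56) and Cyp51 (0.52), and the lowest value is that of Dhcr7 with Srebf2 (-0.39).

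Pairs within the sterol arm had the highest median among the arms, 0.152 over 55 pairs, and pairs within the regulator arm the lowest, 0.0191 over 10. Pairs of a sterol with a fatty acid gene had 0.131 over 66. Set against the summed level of the mevalonate and sterol arms without the gene itself, Hmgcs1 had a rho of 0.69, Sc4mol 0.57, Cyp51 0.54 and Fdft1 0.49. Among fatty acid genes Scd2 had 0.54 and Acly 0.36, while Fasn had 0.11 and Acaca -0.02. Srebf2 was at 0.30, Acat2 at -0.06, Ebp at -0.05 and Insig2 at -0.20.

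The sum itself ran from 3.91 in A03 to 36.2 in E02 (24.8 of it from Fdft1), with a median of 9.49. Its rho was 0.59 with the fatty acid sum, -0.05 with the gene total of the well, 0.09 with the mitochondrial share, -0.28 with the ES marker sum and 0.23 with the feeder marker sum. B05 had the highest mevalonate sum (10.98) and the highest fatty acid sum (12.6) of all 96 wells, led by 61 molecules of Hmgcs1, 57 of Acly, 30 of Fasn, 29 of Idi1 and 27 of Elovl6. It also had the highest level of Insig1 (17 molecules, 1.49). The primitive endoderm marker sum of B05, 2.81, was the highest of all 96 wells. Its ES marker sum was 40.3, against a median of 113 in the 42 wells. The part of these markers was not tested.

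**Figure D5:**
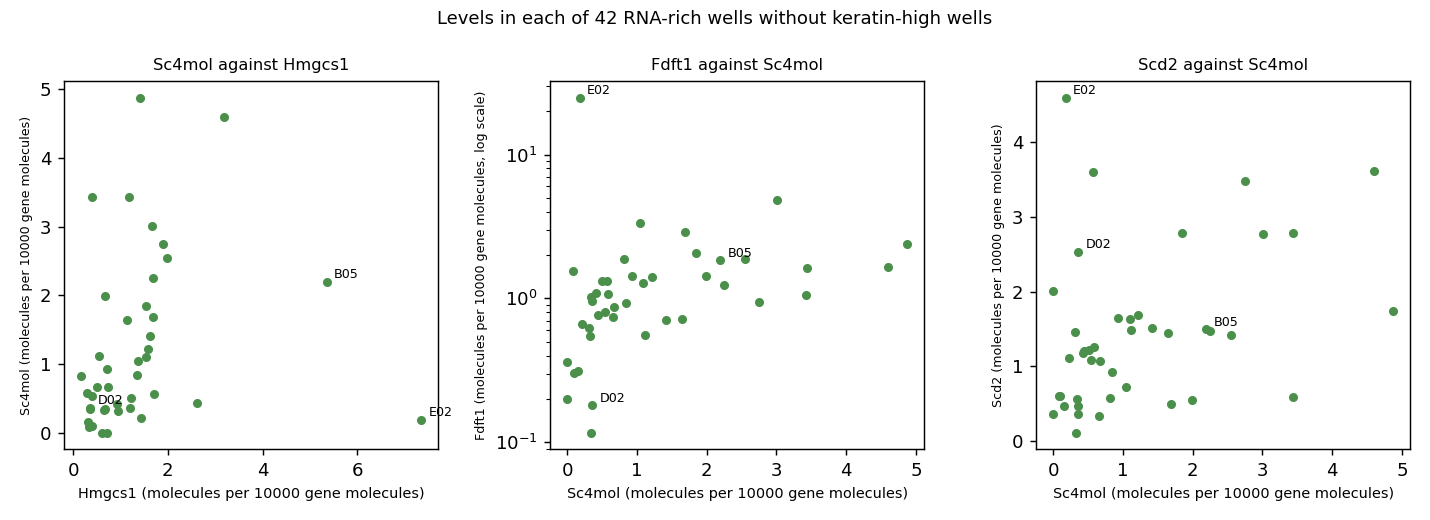
Levels in each of the 42 other RNA-rich wells, in molecules per 10000 gene molecules, for Sc4mol against Hmgcs1, Fdft1 (log scale) against Sc4mol, and Scd2 against Sc4mol. Sc4mol and Fdft1 have the highest rho of the 3 pairs (0.56), and E02 has the highest Hmgcs1, Fdft1 and Scd2 with Sc4mol at 0.184.

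Among 1507 genes outside the 29 with a level of at least 1, the 10 most like the cholesterol sum had rho of 0.38 to 0.50 over the 42 wells. They were Hnrnpa0 (0.50) and Khdrbs1 (0.47), which encode RNA-binding proteins, Ly6e (0.46), a lipid-anchored surface protein, Ezh2 (0.43), a histone methyltransferase, Hmgn5 (0.43), Arf1 (0.43), a GTPase of the Golgi, Tpt1 (0.41), Eif3b (0.41), Zc3h11a (0.38) and Ubl5 (0.38). Hmgcs1 and Sc4mol, each against the sum without itself, were above all 10. Without E02, Arf1 came first (0.51), and Khdrbs1, Eif3b, Hnrnpa0 and Hmgn5 were again among the 10, while Ly6e, Ezh2, Tpt1, Zc3h11a and Ubl5 were not. In low-RNA wells 2700094K13Rik came first (0.55), and none of the 10 genes named above was among the 10 there. The genes were picked as the highest of 1507 in the same wells, which by itself raises their rho.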

How the data were processed

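The deposited table holds molecule counts per feature and cell barcode, made by the authors; per the file headers, a read that matched several places counted at the exonic match nearest the 5′ end. Bowtie is named in the submitters' processing notes, as is the build mm10 (GRCm38), with no version. All 96 barcodes are shared by the library forms. Of 25914 features, 96 were spike-ins and 1554 repeat types. No well was left out, and no doublet caller was run.

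Levels, ratios and exact binomial intervals (95%) were computed with Python 3.11.15, numpy 2.4.6, scipy 1.17.1 and pandas 2.3.3. The spike-in fit was a gamma model with identity link over spike-ins whose mean was 0.1 or more, and was not refitted for thinned wells. The noise calls, the spike-in fit, the pooled ratio intervals and the median pair correlation were tested on simulated data. Thinning and detection were not. The members and lists were chosen with earlier results of these data known. Named were all members, pathway genes past 1.5-fold between low-RNA and RNA-rich wells or above technical noise, and the 10 genes most like the cholesterol sum. Gene positions are those of GENCODE M21. Low counts limit precision, with 76 to 1022 molecules per member. Some genes of the pathway are not reported here. Alternatives changed the denominator, the wells kept, thresholds and depth.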

Additional observations from a re-analysis of the deposited data

How the results depend on the processing

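No paired analysis was possible because the table has 1 column per well for both library forms. Of the members and arms past the 1.5-fold limit, Stard4 in keratin-high wells (1.90, or 0.902 without H05) turned round and no other did under the alternatives run. The fatty acid arm, at 0.881 (0.795 to 0.975), came to lie above 1 without mitochondrial genes. The denominator mattered most: without mitochondrial genes the ratio of low-RNA to RNA-rich levels was 0.884 for all members, 0.854 for the mevalonate arm, 0.706 for the sterol arm and 1.11 for the fatty acid arm, with 9 members lower and a mevalonate median of 4.59 in low-RNA wells. Per spike-in these were 0.218, 0.210, 0.174 and 0.274, with 0.201 for the regulator arm and 29 members lower. The cause was not tested. Leaving out keratin-high wells, wells of outlying spike-in total or E02 left the ratios of all members and of each arm within their intervals. Leaving out D02 with E02 did the same for all members and was not run for the arms. With the border between classes at the median gene total, the Hsd17b7 ratio was 0.714.

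Members above technical noise numbered 8 of 29 at a ratio of 1.5, beside 16.29% of all genes. After thinning to 50000 molecules they numbered 0 of 20, beside 1.58%. There was 1 of 29 without E02, beside 4.9%, and 1 of 29 without D02 and E02, beside 4.32%. Alternatives with E02 or D02 left out were chosen after seeing the data. Cyp51 took the place of Scd2 per spike-in, and with keratin-high wells Scd2 was not called. The median rho of member pairs lay between 0.0682 and 0.148 in the 42 wells. A minimum mean of 5 gave no value in low-RNA wells, where fewer than 2 members passed. In low-RNA wells the median rho per spike-in was 0.111 beside 0.0978 over all gene pairs. Detection without thinning was 35.6% in low-RNA wells and 78.4% in RNA-rich wells. The fatty acid share by well had a median of 32.03% in RNA-rich wells, and the longer sterol element was in 0 members.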
